A study of Mus musculus with 23 samples.

Results

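This account concerns 35 genes that encode chromatin and transcription regulators linked to autism in people, read from RNA sequencing of the mouse brain. The genes form a list chosen by name, and all 35 were found by symbol among the 18578 genes of the deposited table. HT shock denotes male C57BL/6J mice heterozygous (HT, called heterotype in the labels) for the edited Grin2b allele C456Y after foot-shock, an aversive electric stimulus to the feet (6 libraries). HT control mice carried the same allele without foot-shock (6 libraries), WT shock mice were wild type with foot-shock (5 libraries), and WT control mice were wild type without it (6 libraries). The product of Grin2b is GluN2B, a subunit of the NMDA-type glutamate receptors found at excitatory synapses. All 23 libraries came from brain, with no region named, and the labels give postnatal day 17 whereas the series text speaks of adult mice. Nothing in the labels ties each library to an animal of its own, and the p-values below thus reflect only library-to-library spread, part of which may be technical.

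Regulators of this kind act on how DNA is packed and read. Remodelling complexes slide or evict nucleosomes, histone methyltransferases and demethylases write and erase methyl marks on histone tails, cofactors such as Mediator and cohesin connect distant DNA elements with promoters, and sequence-specific transcription factors choose which genes are acted on. Many of these genes are dosage sensitive in people: loss of a single copy is a known cause of neurodevelopmental disorders. In the developing and adult brain they are expressed in neurons of many regions, and some, such as Tbr1 and Foxp2, mark particular neuron classes.

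Promoter sequences are given for 4 of the regulators, the 2 that were higher and 2 of the 5 that were lower in HT shock relative to WT shock, because these 4 each have a single promoter in the RefSeq table. Each runs 5′ to 3′ on the strand of the gene, with 250 bases before the RefSeq start and 50 from it on (build GRCm38.p6), and the capitals mark GGGCGG or its reverse complement CCGCCC, the core of a GC box, with overlapping matches run together.
Bcl11a, chr11:24080445-24080744, plus strand: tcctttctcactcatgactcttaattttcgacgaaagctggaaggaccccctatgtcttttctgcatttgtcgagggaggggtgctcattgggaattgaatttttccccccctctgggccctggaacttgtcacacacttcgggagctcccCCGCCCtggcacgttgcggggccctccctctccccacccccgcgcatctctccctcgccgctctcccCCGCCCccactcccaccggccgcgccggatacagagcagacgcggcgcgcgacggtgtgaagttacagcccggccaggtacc
Setd2, chr9:110532347-110532646, plus strand: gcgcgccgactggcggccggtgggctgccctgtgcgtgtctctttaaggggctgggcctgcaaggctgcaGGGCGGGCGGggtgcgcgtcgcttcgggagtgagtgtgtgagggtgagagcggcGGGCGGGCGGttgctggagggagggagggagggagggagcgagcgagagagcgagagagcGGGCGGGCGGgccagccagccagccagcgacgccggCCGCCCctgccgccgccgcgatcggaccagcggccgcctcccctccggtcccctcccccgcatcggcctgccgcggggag
Kmt2c, chr5:25498734-25499033, minus strand: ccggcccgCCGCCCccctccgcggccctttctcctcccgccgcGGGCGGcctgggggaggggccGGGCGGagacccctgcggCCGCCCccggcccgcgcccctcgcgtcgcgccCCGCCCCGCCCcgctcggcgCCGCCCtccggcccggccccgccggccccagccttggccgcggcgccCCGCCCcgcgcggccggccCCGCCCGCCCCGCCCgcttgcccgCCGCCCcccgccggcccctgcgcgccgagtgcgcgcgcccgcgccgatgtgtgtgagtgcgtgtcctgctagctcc
Med13l, chr5:118560469-118560768, plus strand: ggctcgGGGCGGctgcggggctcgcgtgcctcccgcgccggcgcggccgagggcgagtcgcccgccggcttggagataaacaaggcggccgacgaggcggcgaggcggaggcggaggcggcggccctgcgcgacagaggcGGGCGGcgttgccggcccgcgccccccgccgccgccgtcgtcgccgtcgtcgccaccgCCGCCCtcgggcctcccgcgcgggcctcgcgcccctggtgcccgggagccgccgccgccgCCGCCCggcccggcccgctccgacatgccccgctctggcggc
The Bcl11a window held 2 matches, the Setd2 window 7, the Kmt2c window 12 and the Med13l window 4. Of the other genes that fell, Kmt5b has 2 windows in the table, with 1 and 2 matches, and Foxp1 has 3, with 1, 0 and 3. The RefSeq table held 36 promoters of 25 regulators, and 26 of the 36 (72.2%) had at least 1 match, against 35.7% of all 32851 promoters of the same length. These promoters were also rich in CG dinucleotides, with a median of 21 per window, against 7 over all promoters, and a median GC content of 65.0%, against 52.7%. Promoters matched for GC content or for expression in brain were not compared. A match is a run of letters and not evidence of binding.

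All 35 regulators were expressed in every group. Divided by the length of the longest coding transcript in the GENCODE annotation, the level (mean normalized count per kilobase over all 23 libraries) was highest for Smarcc2, a core subunit of the BAF remodelling complex, at 2265. Ankrd11, a cofactor that binds histone deacetylases, followed at 969.6, then Myt1l at 948.1, a zinc-finger factor that represses non-neuronal genes, and Tcf4 at 901.6, a basic helix-loop-helix factor. The next levels per kilobase lay close together: Wac 647.8, Tbr1 624.2, Setd5 617.4, Trip12 615.3, Ctcf 602.8 and Auts2 554.4. Tcf20 (458.6), Kmt2a (442.4), Bcl11a (441.3), Ash1l (439.6), Dyrk1a (418.4), Nsd1 (403) and Rai1 (401.3) formed a middle group of level per kilobase. Below them, in falling order, came Adnp (369.8), Pogz (358.8), Med13l (346.2), Foxp1 (336.5), Setd2 (317.1), Phf21a (288.1) and Kmt5b (281.5). Many enzymes of histone methylation and demethylation were in the lower part of the order, with Kmt2c at 259.6, Kdm6b at 252.2, Kdm5b at 241.4 and Ehmt1 at 208.8 per kilobase. Tbl1xr1 (254.4), Arid1b (247.4), Mbd5 (237.2) and Nipbl (195.9) lay among them. The lowest were Zfp462 at 167, Foxp2 at 98.93 and Asxl3, the scaffold of a histone deubiquitinase, at 31.47.

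**Figure D1:**
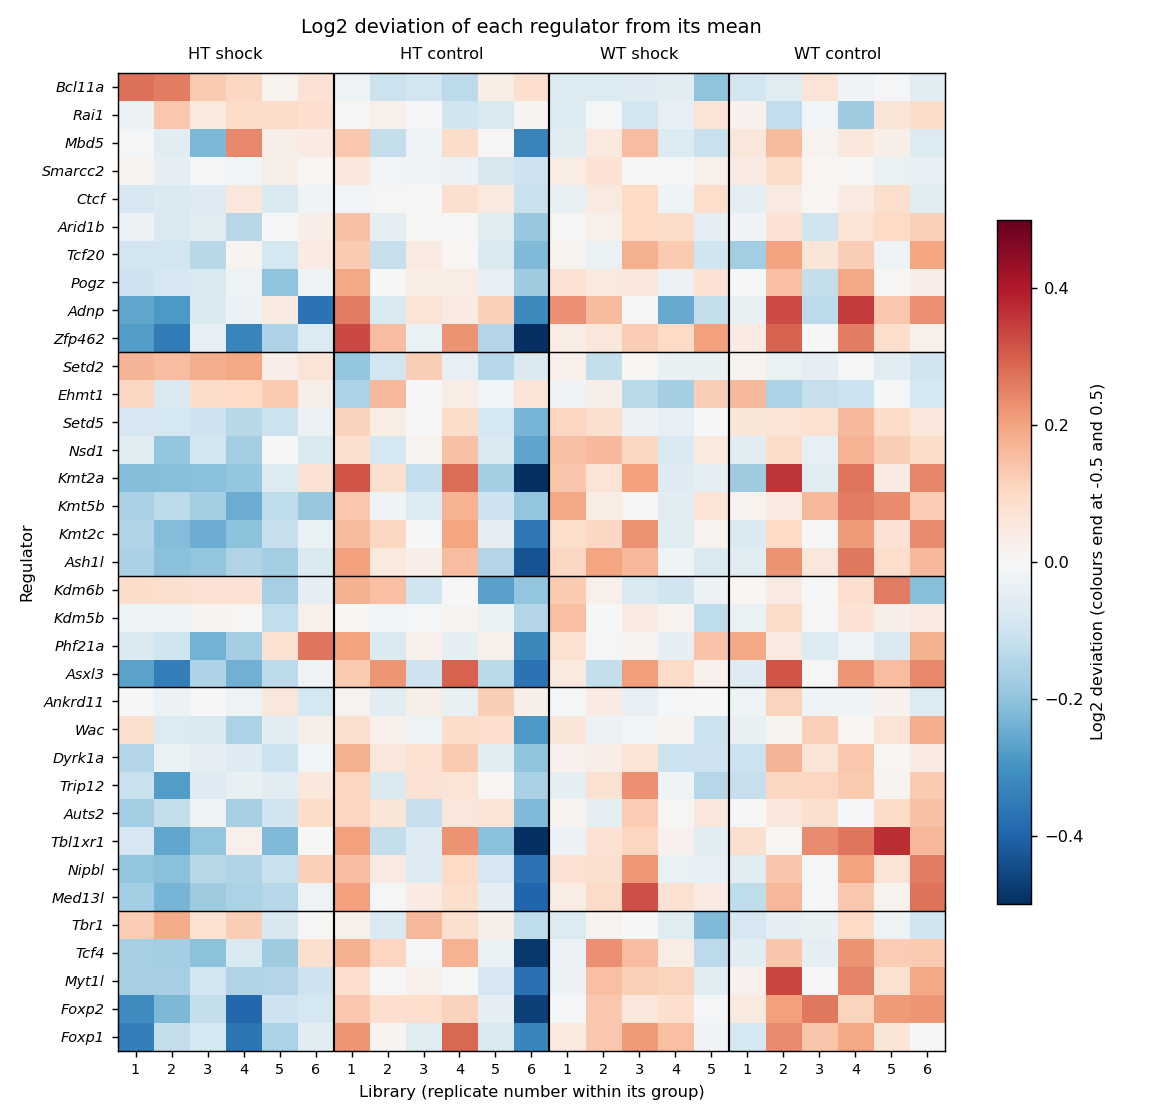
Log2 deviation of each of the 35 regulators from its mean over all 23 libraries, with libraries in columns by group and regulators in rows by role (black lines). HT shock replicates 1 to 5 are mostly blue, with 24 to 30 of the 35 regulators below their means, and replicate 6 is not, with 17. Bcl11a and Setd2 are the clearest red rows in HT shock, and HT control replicate 6 is blue for 31 of the 35 regulators.

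Calls were made in the comparison of genotypes after foot-shock. In HT shock against WT shock, 7 of the 35 regulators passed an adjusted p of 0.05 in limma, 2 higher and 5 lower, where 9.28% of all 17118 genes tested did (3.95% higher and 5.33% lower). Bcl11a and Setd2 rose, and Kmt5b, Foxp1, Med13l, Foxp2 and Kmt2c fell. The log2 difference was negative for 28 of the 35, with a median of -0.112, against a median of 0.004 over all genes, of which 49.2% were negative. An unadjusted p under 0.05 was reached by 17 regulators and by 27.9% of all genes. The 2 groups did not overlap for 8 regulators, 2 of them higher and 6 lower in HT shock, a pattern shown by 8.57% of all genes. The count depended on how the spread was modelled. With library weights 15 regulators passed, 3 higher and 12 lower, where 22.1% of all genes did (9.99% higher and 12.1% lower). With the compared groups alone 15 passed, where 17.1% of all genes did, and with the title's replicate number as a block 2 passed, both higher, where 2.63% did (1.24% higher and 1.39% lower).

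Bcl11a, a zinc-finger repressor associated with BAF and needed by cortical projection neurons, is on chromosome 11 (GRCm38 chr11:24078056-24174123). Its normalized counts in HT shock libraries were 2667 at the lowest, 2857 at the median and 3193 at the highest, against 2513, 2514, 2522, 2542 and 2289 in WT shock. Every HT shock library was above every WT shock library. The log2 difference was 0.23 ± 0.05 (SE; 95% interval 0.13 to 0.33, adjusted p = 0.00845), and the call held without each of the 23 libraries in turn, with adjusted p values up to 0.0311. Without foot-shock, the counts ran from 2408 through a median of 2524 to 2794 in HT control and from 2473 through 2568 to 2761 in WT control.

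Of the other 9 remodelling and DNA-binding chromatin proteins, none passed the threshold in this comparison. Zfp462, a multi-zinc-finger nuclear protein, had the most negative value, -0.31 ± 0.10 (adjusted p = 0.0606). It measured 1356, 1489 and 1679 (lowest, median, highest) in HT shock, against 1772, 1800, 1887, 1854 and 1992 in WT shock, with no overlap between the groups. Pogz, a zinc-finger protein that binds heterochromatin protein HP1, came next to it in p, at -0.13 ± 0.06 (adjusted p = 0.122), and its ranges touched, with a highest value of 2248 in HT shock against a lowest of 2247 in WT shock. The nucleosome-binding regulator Rai1 was at 0.10 and its paralog Tcf20 at -0.10, with adjusted p values of 0.148 and 0.342. The log2 differences of the others, none past the threshold, were those of the homeodomain protein Adnp (-0.16 ± 0.10), the insulator protein Ctcf (-0.08 ± 0.04), the BAF subunits Arid1b (-0.08) and Smarcc2 (-0.03), and the methyl-CpG-binding-domain protein Mbd5 (0.01).

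The 8 histone methyltransferases split. Setd2 writes the trimethyl mark on lysine 36 of histone H3 over transcribed gene bodies and is on chromosome 9 (chr9:110532597-110618633). It gave 2705, 2956 and 3019 normalized counts (lowest, median, highest) in HT shock, against 2687, 2432, 2658, 2576 and 2574 in WT shock, so the lowest HT shock library exceeded the highest WT shock library. The log2 difference was 0.16 ± 0.05 (95% interval 0.07 to 0.26, adjusted p = 0.0294). Its call was lost without HT shock replicate 1, 2, 3 or 4 or WT shock replicate 2 or 5, with adjusted p values up to 0.0818. Kmt5b, which dimethylates lysine 20 of histone H4 (chr19:3767421-3818303), went the other way. It gave 1444, 1532 and 1572 in HT shock, against 1964, 1761, 1724, 1649 and 1798 in WT shock, again without overlap. The log2 difference was -0.22 ± 0.06 (95% interval -0.34 to -0.10, adjusted p = 0.0266). Its call was lost without HT shock replicate 1, 3 or 4 or WT shock replicate 1, 2 or 5, with adjusted p values up to 0.0727.

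Kmt2c, an enhancer H3K4 methyltransferase (chr5:25271798-25498783), was the regulator closest to the threshold among those called. Its counts were 3255, 3416 and 3772 in HT shock, against 4101, 4145, 4511, 3699 and 3911 in WT shock, so the ranges overlapped slightly. The log2 difference was -0.23 ± 0.08 (95% interval -0.39 to -0.08, adjusted p = 0.0491), and the call held in 8 of the 23 fits that left out 1 library, with adjusted p values up to 0.129. Nsd1 and Ash1l, which methylate lysine 36 of histone H3, gave -0.17 ± 0.06 and -0.23 ± 0.08, with adjusted p values of 0.0597 and 0.0673. Setd5, a SET-domain protein, was at -0.11 (adjusted p = 0.115), and the H3K4 methyltransferase Kmt2a at -0.20 ± 0.12 (adjusted p = 0.3). Ehmt1, an H3K9 methyltransferase, was at 0.10 (adjusted p = 0.319). The median over the 8 enzymes was -0.186.

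**Figure D2:**
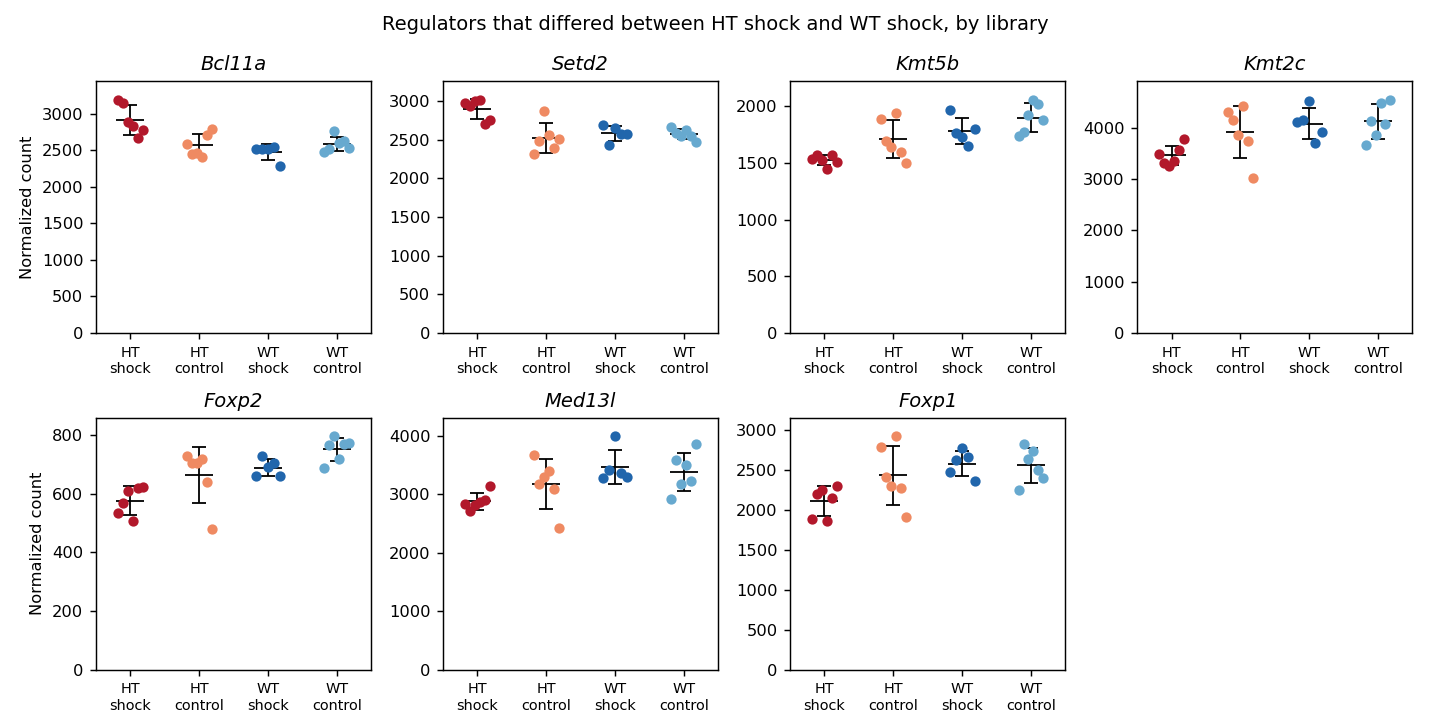
Normalized counts of the 7 regulators that passed an adjusted p of 0.05 in HT shock against WT shock, 1 point per library, with the mean and SD of each group as bars. Bcl11a and Setd2 sit higher in HT shock than in WT shock, the other 5 sit lower, and the lowest HT control point of each of those 5 is replicate 6.

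None of the 4 demethylases, readers and scaffolds passed. Kdm6b, which removes methyl groups from lysine 27 of histone H3, was at 0.03 ± 0.08, and Kdm5b, which acts on lysine 4, at -0.04 ± 0.04. Phf21a, a reader of unmethylated lysine 4 in a corepressor complex, was at -0.07 ± 0.08. Asxl3 was at -0.24 ± 0.10 (adjusted p = 0.104), with 286.4 to 360.1 normalized counts in HT shock, against 335.3 to 421.8 in WT shock, the lowest level of the list.

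All 8 cofactors, kinases and ubiquitin pathway members had negative log2 differences, and 1 passed. Med13l, a subunit of the kinase module of Mediator (chr5:118560679-118765438), gave 2718, 2853 and 3142 in HT shock, against 3282, 3418, 3994, 3375 and 3293 in WT shock. No library of the 2 groups overlapped, and the log2 difference was -0.27 ± 0.08 (95% interval -0.43 to -0.10, adjusted p = 0.037). The call was lost in 10 of the 23 fits that left out 1 library, those without HT shock replicate 1, 2, 3, 4 or 5 or any of the 5 WT shock libraries. The adjusted p reached 0.11 without WT shock replicate 3, at 3994. The cohesin loader Nipbl was at -0.17 ± 0.08 (adjusted p = 0.145), the NCoR corepressor subunit Tbl1xr1 at -0.14 ± 0.10 (adjusted p = 0.346), and Auts2, a component of a Polycomb complex, at -0.11 ± 0.06 (adjusted p = 0.186). The remaining members lay closer to 0, with the ubiquitin ligase Trip12 at -0.10, the kinase Dyrk1a at -0.05, the H2B ubiquitination adaptor Wac at -0.03 and Ankrd11 at -0.01.

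The sequence-specific factors held both forkhead genes among the fallen. Foxp1, a forkhead factor of striatal projection neurons and of parts of the cortex (chr6:98925338-99522721), gave 1864, 2176 and 2305 in HT shock, against 2476, 2632, 2778, 2662 and 2365 in WT shock. Its groups did not overlap, and the log2 difference was -0.29 ± 0.08 (95% interval -0.47 to -0.12, adjusted p = 0.0332). Foxp2, its paralog, known for its part in speech in people and expressed in striatum, thalamus and deep cortex (chr6:14901349-15441977), gave 505.3, 589.4 and 623.8 in HT shock, against 661.3, 729, 689.3, 703.8 and 659.9 in WT shock. The groups again did not overlap, and the log2 difference was -0.26 ± 0.08 (95% interval -0.43 to -0.09, adjusted p = 0.0475). That call held in 6 of the 23 fits that left out 1 library, whereas that of Foxp1 held in 15 and was lost without HT shock replicate 1, 2, 3 or 4 or WT shock replicate 1, 2, 3 or 4. The adjusted p reached 0.103 for Foxp2 and 0.082 for Foxp1.

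The other 3 factors did not pass. Myt1l gave 6043, 6133 and 6359 in HT shock, against 6662, 7541, 7376, 7337 and 6507 in WT shock, with no overlap and a log2 difference of -0.20 ± 0.07 (adjusted p = 0.057). Tcf4 was at -0.17 ± 0.09 (adjusted p = 0.23). Tbr1, a T-box factor of early-born deep cortical neurons, was the 1 member of this class with a positive value, 0.14 ± 0.05 (adjusted p = 0.0935), with counts of 2342 to 2815 in HT shock, against 2126 to 2505 in WT shock. Foxp1, Foxp2 and Setd5 are on chromosome 6, which also carries the edited Grin2b gene. Whether their place on that chromosome bears on their values was not tested.

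**Figure D3:**
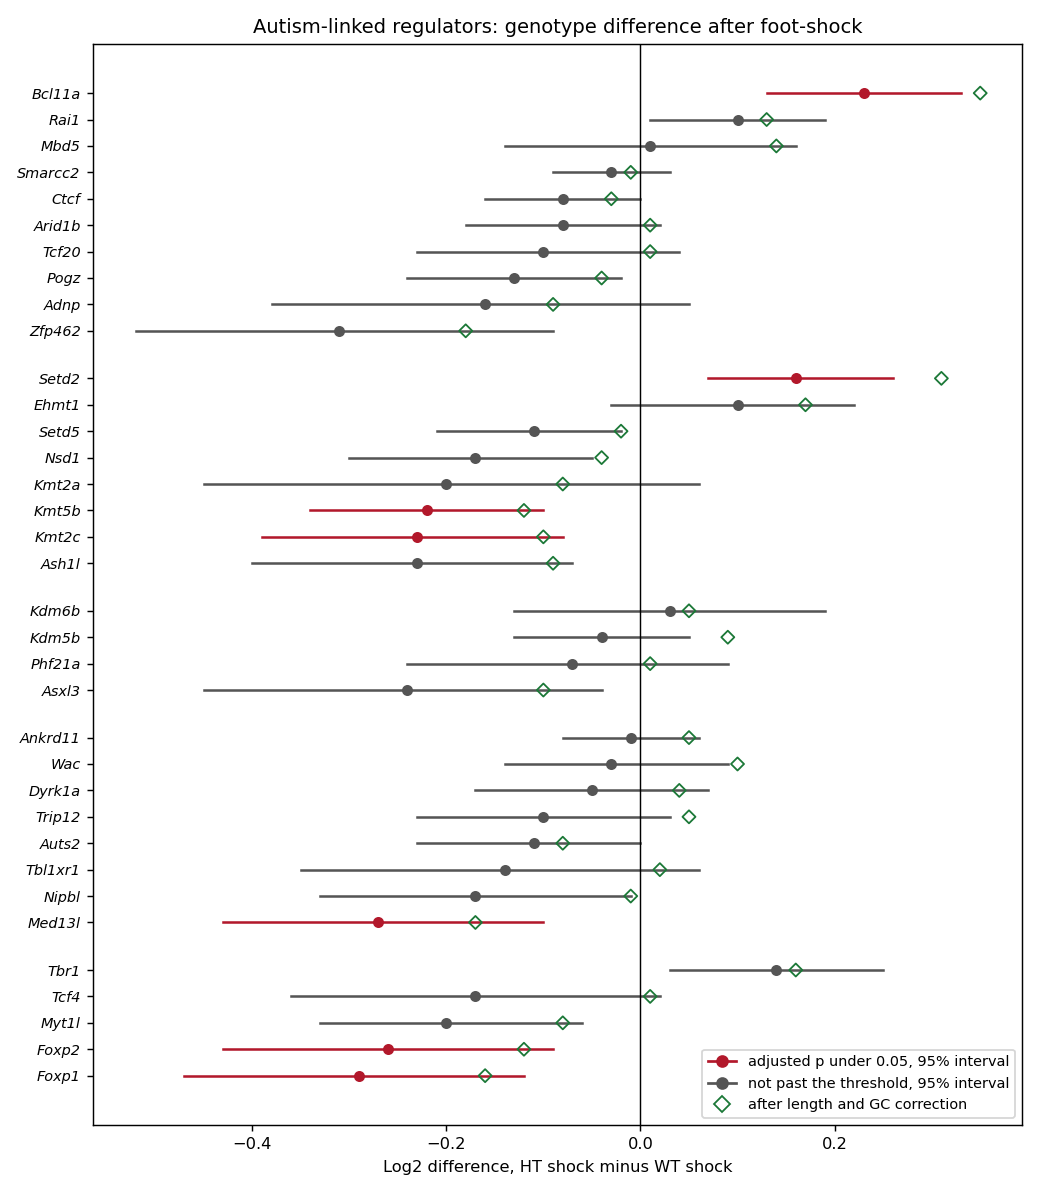
Log2 difference of HT shock minus WT shock for each regulator, grouped by role, as a point with its 95% interval (red where the adjusted p was under 0.05), and the value corrected for the length and GC content of the transcript as an open diamond. Before correction 28 of 35 points lie left of 0, and after it the diamonds lie on both sides, with a median of -0.008.

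Transcript length moved with these differences. The regulators have long transcripts, from 3.78 to 16.47 kb with a median of 7.35 kb, against a median of 3.01 kb over the 17106 tested genes with a length, and all 35 exceeded that median. In HT shock against WT shock the median log2 difference of all genes stepped down with length: it was 0.093 in the shortest quintile of genes, then 0.054, 0.015 and -0.031, and -0.108 in the longest quintile, which held 31 of the 35 regulators. Among the other 3390 genes of the longest quintile, 76.9% were negative, 15.7% passed as lower and 1.06% as higher, with a median of -0.107. The corresponding values of the regulators were 80.0%, 14.3% and 5.71%, with a median of -0.112.

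**Figure D4:**
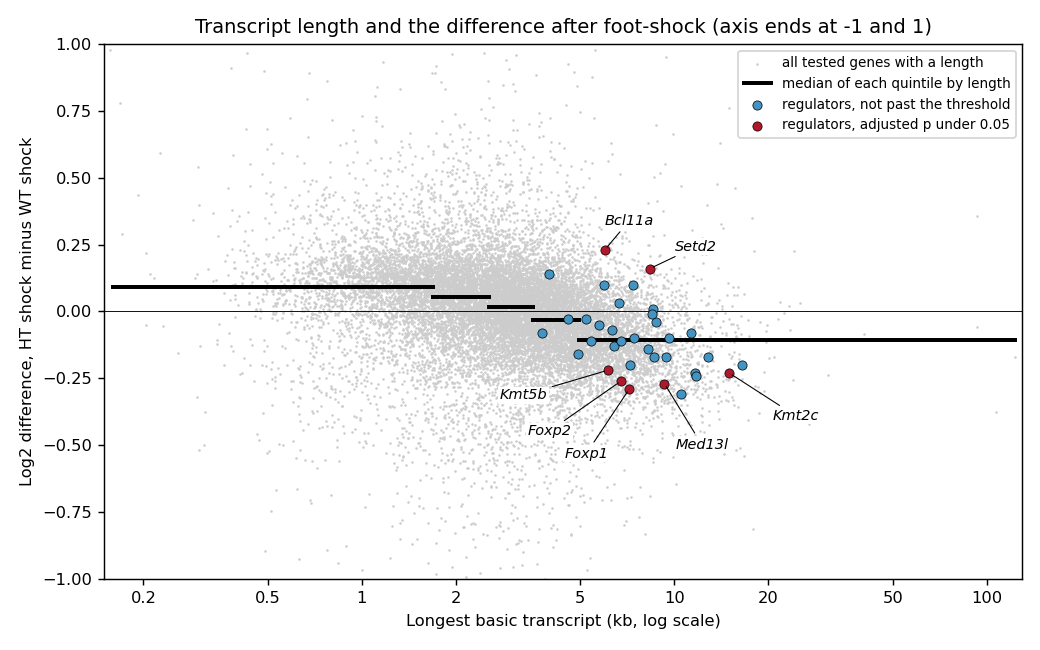
Transcript length (kilobases, log axis) against the log2 difference of HT shock minus WT shock for all tested genes with a length (grey), the median of each quintile of genes by length (black bars) and the 35 regulators (blue, or red where the adjusted p was under 0.05); a few genes lie beyond the axis. The medians step down from 0.093 to -0.108, and Bcl11a and Setd2 lie above the bar of the longest quintile.

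With each library corrected for transcript length and GC content, 2 regulators passed, Bcl11a at 0.35 ± 0.07 (adjusted p = 0.00742) and Setd2 at 0.31 ± 0.07 (adjusted p = 0.0102), and 5.04% of all genes did (2.7% higher and 2.34% lower). None of the 5 fallen regulators remained past the threshold under that correction. Their corrected log2 differences were -0.17 for Med13l (adjusted p = 0.0652), -0.16 for Foxp1 (0.106), -0.12 for Kmt5b (0.153), -0.12 for Foxp2 (0.268) and -0.10 for Kmt2c (0.147). Corrected for length alone, 4 regulators passed as higher, Bcl11a, Setd2, Rai1 and Tbr1, and 0 as lower, where 6.43% of all genes passed (3.81% higher and 2.62% lower). The source of the relation with length was not tested.

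**Figure D5:**
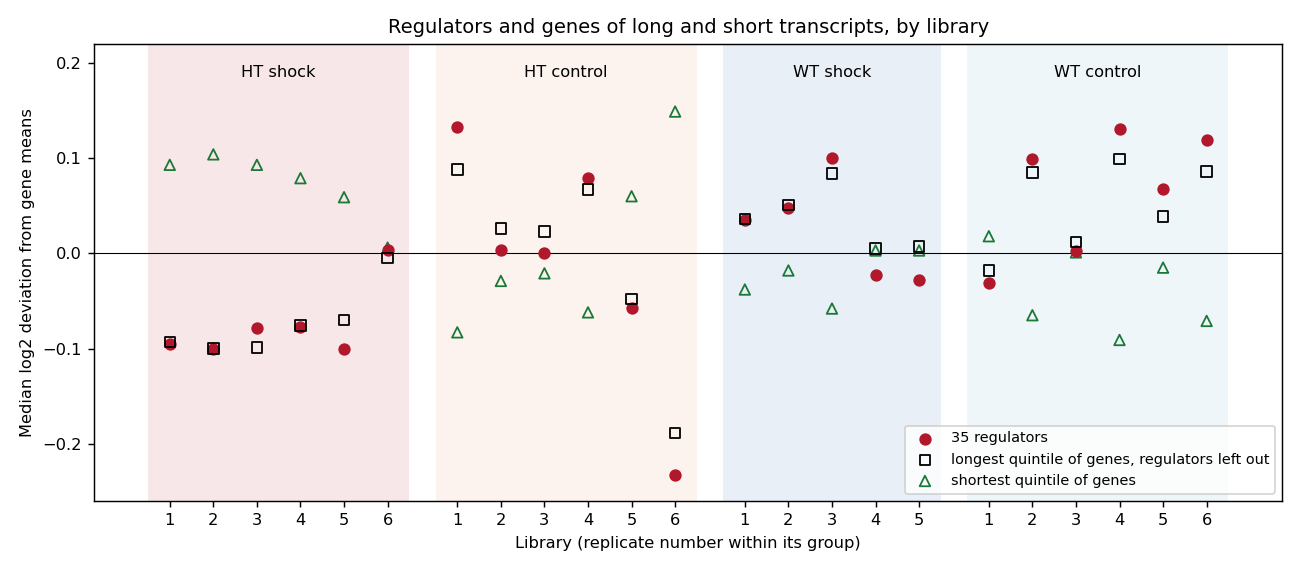
Median log2 deviation from the gene means, 1 column per library, for the 35 regulators (filled circles), the longest quintile of genes without them (squares) and the shortest quintile (triangles). The difference between circles and squares lies between -0.044 and 0.045, some pairs near 0 fall on opposite sides of it, and HT control replicate 6 has the lowest circle at -0.233.

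Single libraries differed in the same measure. The median deviation of the 35 regulators from their means was -0.075 ± 0.040 (SD, n = 6) in HT shock, -0.012 ± 0.127 (n = 6) in HT control, 0.026 ± 0.053 (n = 5) in WT shock and 0.065 ± 0.066 (n = 6) in WT control. The SD within groups, pooled over the 4, was 0.08. HT control was the most scattered group, from -0.233 in replicate 6 to 0.133 in replicate 1. In replicate 6 the longest quintile of genes was at -0.189 and the shortest quintile at 0.149, and 31 of the 35 regulators were below their means. On the first principal component of all genes (12.9% of the variance), replicate 6 stood at 31.3, beyond the HT shock libraries at 11.4 to 26, whereas HT control replicates 1 to 5 lay between -12.7 and 5.17.

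Whether foot-shock changed the regulators within the mutant was asked by HT shock against HT control, which shares the HT shock libraries with the comparison above. No regulator and 0% of all genes passed in limma, while an unadjusted p under 0.05 was reached by 8 regulators and by 13.7% of all genes. The median log2 difference was -0.074, with 26 of 35 negative, against 0.003 over all genes. Among the other genes of the longest quintile the median was -0.068, with 75.7% negative. Setd2 had the smallest p, at 0.20 ± 0.04 (adjusted p = 0.212), with the 6 HT control libraries from 2311 through a median of 2496 to 2879. Bcl11a followed at 0.18 ± 0.05 (adjusted p = 0.219) and Kmt5b at -0.16 ± 0.06 (adjusted p = 0.277), the HT control values of Kmt5b running from 1498 through 1668 to 1939. The ranges of the groups overlapped for all 3, as for every other regulator, and only 0.286% of all genes had groups that did not overlap.

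In that comparison Setd2 was the 1 regulator that passed without HT control replicate 3. The count depended most on 1 of the 23 libraries left out in turn, HT control replicate 6. That library lay beyond the HT shock libraries on the first principal component. Its omission thus moves the HT control mean on that component away from HT shock, and the fit without it is not a separate test. Without HT control replicate 6, 13 regulators passed, 2 higher and 11 lower, where 12.1% of all genes did (4.48% higher and 7.57% lower). Bcl11a was then at 0.21 (adjusted p = 0.00642) and Setd2 at 0.20 (adjusted p = 0.00698). The 11 lower were Zfp462, Kmt2c, Kmt5b, Setd5, Ash1l, Asxl3, Med13l, Dyrk1a, Tcf4, Foxp1 and Foxp2, and the most negative was Zfp462 at -0.31 (adjusted p = 0.0108). The median over the 35 was -0.120. With all libraries and library weights, in which replicate 6 had 0.24, there were also 13, 2 higher and 11 lower, where 16.3% of all genes passed (7.07% higher and 9.24% lower). Leaving out HT control replicate 6 raised the count in HT shock against WT shock to 13 as well, where 17.1% of all genes passed, in a fit that shares 1 estimate of the spread among the groups. In HT shock against HT control with all libraries and the length and GC correction, no regulator passed and 0.0234% of all genes did. The omission of replicate 6 was not combined with that correction.

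The genotype difference without foot-shock was given by HT control against WT control. No regulator and 0% of all genes passed in limma, and 5 regulators and 11.1% of all genes had an unadjusted p under 0.05. The median was -0.081 with 31 of 35 negative, against -0.001 over all genes. Among the other genes of the longest quintile the median was -0.055, with 71.4% negative. The median of the regulators was -0.030 without HT control replicate 6 and -0.033 after the length and GC correction. Myt1l had the smallest p, at -0.20 ± 0.06 (adjusted p = 0.34). It measured 5235, 6808 and 7193 (lowest, median, highest) in HT control, against 6793, 7460 and 8552 in WT control, with overlapping ranges. No regulator had groups without overlap, against 0.421% of all genes. Tbl1xr1 was at -0.27 ± 0.09 (adjusted p = 0.357), from 1421 through 1947 to 2425 in HT control and from 2092 through 2390 to 2679 in WT control. Kmt5b was at -0.15 ± 0.06 (adjusted p = 0.384). Foxp2, called lower after foot-shock, was at -0.19 ± 0.08 (adjusted p = 0.403) and at -0.10 without HT control replicate 6. Its mean normalized count was 662.5 in HT control and 750.6 in WT control. Bcl11a and Setd2 were at -0.01 and -0.03, with 95% intervals of -0.11 to 0.08 and -0.12 to 0.06.

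Foot-shock in wild-type mice gave a small negative median. In WT shock against WT control, 0 regulators and 0% of genes passed in limma, and 0 regulators and 3.72% of all genes had an unadjusted p under 0.05. The groups overlapped for every regulator, and did not for 0.374% of all genes. The median was -0.034 with 27 of 35 negative, against a median of -0.015 and 59.4% negative among the other genes of the longest quintile. The smallest p belonged to Tbl1xr1, at -0.17 (95% interval -0.37 to 0.04), then Kmt5b at -0.09 and Foxp2 at -0.12, all with an adjusted p of 0.998. Tbl1xr1 measured 2032, 2185, 2236, 2107 and 1996 in WT shock, and overlapped the WT control values, which began at 2092. Bcl11a was at -0.06 and Setd2 at 0.01, with intervals of -0.16 to 0.04 and -0.09 to 0.10.

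Whether the response to foot-shock differed between the genotypes was tested by the interaction, the shock difference in HT minus that in WT. No regulator and 0% of all genes passed in limma, and 2 regulators and 6.43% of all genes had an unadjusted p under 0.05. They were Bcl11a at 0.25 ± 0.07 (95% interval 0.11 to 0.38, adjusted p = 0.552) and Setd2 at 0.20 ± 0.06 (95% interval 0.07 to 0.33, adjusted p = 0.662). The third smallest p was that of Foxp1 at -0.21 ± 0.12 (adjusted p = 0.781). So the calls for these genes in HT shock against WT shock were not shown to depend on foot-shock. The median over the regulators was -0.030, against -0.056 among the other genes of the longest quintile. The median of the regulators was -0.076 without HT control replicate 6 and 0.027 after the length and GC correction.

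Partners of the regulators were read from 8 lists of 98 further genes of the same complexes and enzyme families, all of which were tested. In HT shock against WT shock, 4 of the 98 rose and 8 fell, with a median of -0.040, where 3.95% of all genes rose and 5.33% fell. Of 21 further subunits of the BAF and PBAF complexes, the neuronal subunits Dpf1 (0.24 ± 0.07, adjusted p = 0.0255) and Actl6b (0.18 ± 0.05, adjusted p = 0.0342) rose and Bcl11b (-0.30 ± 0.09, adjusted p = 0.0343), the paralog of Bcl11a and a factor of striatal neurons and of deep cortical projection neurons, fell. Among 13 Mediator subunits, Med12 rose (0.30 ± 0.09, adjusted p = 0.0412), while Cdk19 (-0.21, adjusted p = 0.0246), Med23 (-0.16, adjusted p = 0.0309) and Med13 (-0.31 ± 0.09, adjusted p = 0.0393), the paralog of Med13l, fell. Med12, Med13 and Cdk19 belong, like Med13l, to the kinase module of Mediator.

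The enzyme lists gave few calls. COMPASS-type complexes methylate lysine 4 of histone H3. Of 14 genes listed for these complexes or their enzyme family, Cxxc1 rose (0.17 ± 0.04, adjusted p = 0.0254). Kmt2e, listed by family, fell (-0.19 ± 0.06, adjusted p = 0.0465). Nsd2, the paralog of Nsd1, was the 1 of 10 further methyltransferases that fell (-0.21 ± 0.05, adjusted p = 0.0215), Kdm7a the 1 of 12 demethylases (-0.33 ± 0.10, adjusted p = 0.0409), and Pds5b the 1 of 11 cohesin genes (-0.13 ± 0.04, adjusted p = 0.0413). None of 12 Polycomb and ASXL-BAP1 genes or of 5 NCoR and SMRT genes passed. The 8 fallen genes had transcripts of 5.1 kb or more, the median of the 98 being 4.66 kb, and none of the 8 passed after the length and GC correction. Of the 4 that rose, Med12 passed after it (0.37, adjusted p = 0.038), whereas Dpf1 (0.16, adjusted p = 0.164), Actl6b (0.08, adjusted p = 0.159) and Cxxc1 (0.09, adjusted p = 0.243) did not. The BAF subunit Bcl7a (0.12, adjusted p = 0.0461) and the cohesin subunit Smc3 (0.16, adjusted p = 0.0128) passed as higher after the correction alone, and are named because they passed there. In the other comparisons none of the 98 passed, but without HT control replicate 6 there were 5 higher and 12 lower in HT shock against HT control, where 4.48% of all genes were higher and 7.57% lower.

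Cell type markers moved in HT shock against WT shock, where 5.33% of all genes fell and 3.95% rose. The marker lists were chosen with earlier results of these data known. In bulk tissue, fewer cells of a type and less RNA per cell cannot be told apart. Of 12 striatal projection neuron markers, 9 fell in HT shock against WT shock, with a median log2 difference of -0.462. Their summed normalized counts lay between 30407 and 44825 in HT shock and between 49562 and 50500 in WT shock, with 39178 to 49677 in HT control and 49957 to 55585 in WT control. Foxp1, Foxp2 and Bcl11b, which striatal neurons express, fell in the same libraries. Of 7 cortical excitatory markers, 3 rose, with a median of 0.135 and sums of 41616 to 49752 in HT shock and 36711 to 42109 in WT shock. Neurons of the cortex express Bcl11a and Tbr1, as well as Foxp1, Foxp2 and Bcl11b, and not all of these genes are confined to them. Bcl11a and Tbr1 had positive values in the same comparison, while Foxp1, Foxp2 and Bcl11b fell. Of 6 thalamic markers 3 fell, of 6 oligodendrocyte markers 4 fell, of 6 astrocyte markers 2 fell, and of 6 interneuron markers 2 rose and 1 fell. The 4 general neuronal markers, with a median of 0.066, gave no call. Nor did the microglia, endothelial and choroid plexus lists, with medians of 0.076, -0.233 and 0.043. No marker of any of the 10 lists was at 0 throughout. In HT shock against HT control, HT control against WT control and WT shock against WT control no marker passed. The median of the striatal markers in those comparisons was -0.257, -0.253 and -0.083, in that order. The part of these markers in the differences of the regulators was not tested.

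Grin2b itself averaged 10704 ± 655 in HT shock, 12301 ± 1678 in HT control, 12833 ± 1389 in WT shock and 13621 ± 1019 normalized counts in WT control (SD, n = 6, 6, 5 and 6). The log2 difference of HT shock against WT shock was -0.26 ± 0.08 (adjusted p = 0.0507). The allele changes 1 residue and need not alter the transcript level, so the genotype labels are not checked by these counts. The normalized counts of a library summed to between 30.98 M and 32.57 M (M, mega), sums set by the normalization, and sequencing depth is unknown. Within groups, the median correlation of a library with the others lay between 0.9856 and 0.99 on the log2 scale.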

How the data were processed

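Brain RNA of 23 libraries was profiled after a stranded mRNA kit, per the labels' protocols. Salmon 1.1.0, DESeq2 1.26.0, R 3.6.2 and build GRCm38 appear, with no roles, in the submitters' processing notes. The signal values the authors deposited are normalized counts that are not whole numbers; between 22.7% and 45.8% of a library's values under 50 were whole multiples of its step to within 0.1, so whole reads were not recovered, depth is unknown, no counting error was given and no count model was fitted. Of 24 columns, 1, named like the WT shock libraries, could not be matched to a label and was left out, so WT shock has 5 libraries. The titles gave the groups and replicate numbers, and in WT shock the bracketed names number the libraries differently. Ensembl IDs gave a symbol for 18563 of 18578 genes. Lengths and GC contents are of the longest basic coding transcript of GENCODE M21, and promoters are from RefSeq.

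Values were transformed as log2(normalized count + 1), a scale that understates changes of low genes, and the 17118 genes with a mean of at least 10, all 35 regulators among them, were fitted with limma 3.58.1 (statmod 1.5.0, R 4.3.3; mean-variance trend, robust) over the 4 groups. P-values of each of the 5 contrasts were adjusted over all 17118 genes (Benjamini-Hochberg), with a threshold of 0.05. The model was also run on simulated data in which genes varied independently. That run did not address libraries that differ with transcript length. The length and GC correction removed natural splines (4 degrees of freedom) of both from each library. The highest correlation between 2 libraries was 0.9908, and no libraries were merged. The alternatives were median centring, no filter, a filter of 20 in at least 5 libraries, pseudocounts of 0.5 and 5, replicate blocks by either numbering, library weights, corrections for length or length and GC, the compared groups alone, and the omission of each library. Members, partner lists and marker lists were chosen with earlier results of these data known. All 35 regulators are named. For those called, values by library or the lowest, median and highest are given in the groups compared. Where none was called, the 3 with the smallest p are named, not all with values in both groups. Up to 3 called genes of each partner list are named, and Med12 is the fourth of Mediator.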

Additional observations from a re-analysis of the deposited data

Results flagged for a closer look

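A library was listed here when its gap to the nearest library of its group exceeded Dixon's 95% critical value, for the counts of the 35 regulators and for their median. Of 144 groups checked 12 met this, and chance alone gives about 1 in 20. HT control replicate 6 was lowest of its group for Kdm5b (1898, nearest 2056), Wac (2759, nearest 3306), Tcf4 (5502, nearest 7504), Foxp2 (478.9, nearest 641.3) and Myt1l (5235, nearest 6399). In the shock groups, Kdm5b was low in HT shock replicate 5 (1929, nearest 2071), Nipbl was high in HT shock replicate 6 (1996, nearest 1701), and the median deviation of the 35 regulators was high in HT shock replicate 6 (0.004, nearest -0.077). Among wild-type libraries, Med13l was high in WT shock replicate 3 (3994, nearest 3418), Pogz was low in WT shock replicate 4 (2247, nearest 2367), Bcl11a was low in WT shock replicate 5 (2289, nearest 2513), and Setd5 was high in WT control replicate 4 (4663, nearest 4441).

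Bcl11a was also listed because its shock difference had opposite directions in the 2 genotypes: every HT shock library exceeded the HT control mean, and every WT shock library was below the WT control mean. The difference between the genotypes' shock differences was 0.25 on the log2 scale, with an adjusted p of 0.552 for the interaction in limma, so the opposite directions were not past the threshold.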

How the results depend on the processing

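In HT shock against WT shock, where 1589 genes and 7 regulators passed, the numbers were 3775 and 15 with library weights, 2930 and 15 with the compared groups alone, and 862 and 2 after length and GC correction; length alone gave 4 regulators. The median of the regulators was -0.008 after length and GC correction and -0.023 after length correction. Same-numbered libraries did not all deviate together: the correlations of their deviations ran from -0.154 to 0.194 by title number, with 5 of 33 over 0.1 (9 of 165 for different numbers), and from -0.114 to 0.194 by library name, with 3 of 33 (11 of 165). A block on the title number gave 450 genes and 2 regulators, and on the library name number 976 and 4. The title block with length and GC correction gave 529 genes, 2 regulators and a median of -0.004. Without 1 library at a time there were 422 to 2925 genes and 1 to 13 regulators: 1 regulator without HT shock replicate 1, 3 or 4 or WT shock replicate 2, 2 without HT shock replicate 2 or WT shock replicate 1 or 5, 3 without WT shock replicate 3, and 13 without HT control replicate 6. Bcl11a passed in all 12 other settings and all 23 omissions, and Setd2 in all 12 and in 17 of 23.

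In HT shock against HT control, where 0 genes passed, library weights gave 2792 genes and 13 regulators, length and GC correction 4 genes and a median of 0.009, length correction 2 genes, the block with length and GC correction 2 genes and a median of 0.009, and the compared groups alone 1 gene. Omissions gave 0 to 2064 genes and 0 to 13 regulators, among them 6 genes without HT shock replicate 6, 4 without WT control replicate 1, and Setd2 as the 1 gene without HT control replicate 3. In HT control against WT control, length and GC correction gave 1 gene, length correction 1, the block with both 2, and omissions 0 to 2. For the interaction, weights gave 2 genes, length and GC correction 1, the block with both 1, and omissions 0 to 1. WT shock against WT control gave 0 genes in every setting. Among single regulators no direction of a called value reversed. The causes of these changes were not tested.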
